A study of Mus musculus with 7 samples.

Results

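The genes of mitosis and chromosome segregation are described here in mouse muscle stem cells (MuSCs) that carry WT or Jag2sm alleles. The 50 genes were taken from a fixed list of symbols: G2/M kinases with their cyclins and regulators, kinetochore, spindle, condensin and cytokinesis genes. All 50 were found by Ensembl identifier among the 56748 genes in the count tables. MuSCs were isolated from the hind limb muscles of adult mice by magnetic separation, as cells without CD31, CD45 or Sca1 and with Integrin α7. The labels' growth protocol has the isolated cells kept in a medium with serum and bFGF, and does not give the time in culture before RNA extraction. There were 3 WT and 4 Jag2sm RNA samples, each made into 1 direct cDNA library and read on nanopore flow cells. Jag2sm is a naturally occurring missense variant in the first EGF repeat of the NOTCH ligand JAG2. The mice were homozygous for it and are described as hypomorphic, although the labels write the genotype as Jag2-/-. The strain of the WT mice, and whether each sample came from a separate animal, are not given in the labels, so p-values measure only the spread between these samples, which may be technical.

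A cell enters mitosis when cyclin B binds and activates the kinase CDK1. The chromosomes are then compacted by condensin and topoisomerase II, attached to spindle microtubules through kinetochores, and held back by the spindle checkpoint until every kinetochore is attached. The anaphase-promoting complex with CDC20 then marks securin and cyclin B for destruction, the sister chromatids separate, and an actomyosin ring divides the cell. Most of these genes are transcribed mainly late in the cell cycle and are shut off in cells that leave it. Myoblasts leave the cell cycle before they fuse into muscle fibers.

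Gene counts ran from 187834 to 1937581 per library. WT replicate 1 stood apart, with the fewest gene counts and with 45.1% of aligned reads outside any gene, a share of 20.8% to 25.7% elsewhere. In this library a single read was worth 5.76 CPM (normalized counts, on library sizes adjusted by the TMM method of edgeR), and a gene with 0 counts is limited to 17.3 CPM, taken as 3 counts. Between 46.0% and 50.8% of all reads did not align in Jag2sm replicates 1, 2 and 4, against 2.44% to 3.24% in the other 4 libraries. All 10 muscle stem cell markers were expressed and passed the filter on low counts. Their summed CPM was 3613 to 6133 in WT and 2349 to 2876 in Jag2sm libraries. At an edgeR adjusted p under 0.05, 1 of them was lower in Jag2sm libraries (Des, log2 fold change -1.63, adjusted p = 0.0244) and 0 were higher. Of all tested genes, 4.84% were lower and 1.42% higher. The fold changes of 4 markers were above 0, among them Pax7 (log2 fold change 0.80, edgeR adjusted p = 0.174). The summed CPM of 10 endothelial markers was 5.69 to 17.3 in WT and 4.43 to 14.1 in Jag2sm libraries, with Kdr, Tie1 and Esam at 0. That of 10 immune markers was 0 to 6.64 and 0.985 to 4.89, with Ptprc, Adgre1, Lyz2, C1qa and Cd52 at 0. The summed CPM in WT and in Jag2sm libraries was 51.9 to 98.9 and 88.7 to 188.3 for 10 fibro-adipogenic, 1078 to 1984 and 869.7 to 2350 for 9 mural, 17.3 to 35.1 and 18.2 to 59.5 for 8 glial, and 115.3 to 128.0 and 31.0 to 76.6 for 7 tenocyte markers. In every library a single gene made up most of the mural (Acta2), fibro-adipogenic (Gsn) and tenocyte (Scx) sums. Acta2 was at 979.9 to 1902 CPM in WT and 798.2 to 2254 CPM in Jag2sm libraries. The mural marker Rgs5 was at 644.8 CPM in Jag2sm replicate 1 and at 11.5 to 40.4 CPM elsewhere. Jag2 itself was at 80.7, 113.8 and 115.7 CPM in WT and 42.4, 78.8, 71.9 and 77.4 CPM in Jag2sm libraries. The genotypes did not overlap, but the difference did not pass the test (edgeR quasi-likelihood, log2 fold change -0.64, adjusted p = 0.166), and a missense allele need not lower the RNA.

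The 50 genes together took a larger share of the reads in every Jag2sm library than in any WT library. Their counts made up 0.0905% (95% exact binomial interval 0.0774% to 0.105%), 0.335% and 0.386% of all gene counts in WT replicates 1, 2 and 3. In Jag2sm replicates 1 to 4 the shares were 0.444%, 0.456%, 0.635% and 0.433%. The intervals of the nearest pair, WT replicate 3 (0.375% to 0.398%) and Jag2sm replicate 4 (0.421% to 0.445%), did not overlap. The group means were 0.270% ± 0.158 (SD, n = 3) in WT and 0.492% ± 0.0959 (SD, n = 4) in Jag2sm MuSCs. The step between WT replicate 1 and the other WT libraries (3.70 and 4.27 times) was wider than that between the mean of WT replicates 2 and 3 and the mean of the Jag2sm libraries (1.37 times). Among the Jag2sm libraries, replicate 3 was the highest and the other 3 lay close together. In bulk RNA, fewer dividing cells and less of these RNAs per dividing cell cannot be told apart. Intervals and limits cover counting error only.

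The differentiated muscle genes ran the other way across the libraries. The 25 genes of that list, among them the transcription factor Myog, myosin heavy chains and troponins, made up 5.98%, 3.45% and 3.76% of gene counts in WT and 0.769%, 0.473%, 0.161% and 0.906% in Jag2sm libraries. WT replicate 1 held the largest muscle share and the smallest mitotic share of the 7 libraries, and Jag2sm replicate 3 held the smallest muscle share and the largest mitotic share. Of the 25 muscle genes, 22 could be tested. Of these, 21 were lower in Jag2sm MuSCs (edgeR adjusted p under 0.05, as were 4.84% of all tested genes) and none was higher. In WT replicate 1, 20 of the 22 were at their highest, where 30.03% of all tested genes were. The part of differentiated cells in the values of the mitotic genes was not tested.

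**Figure D1:**
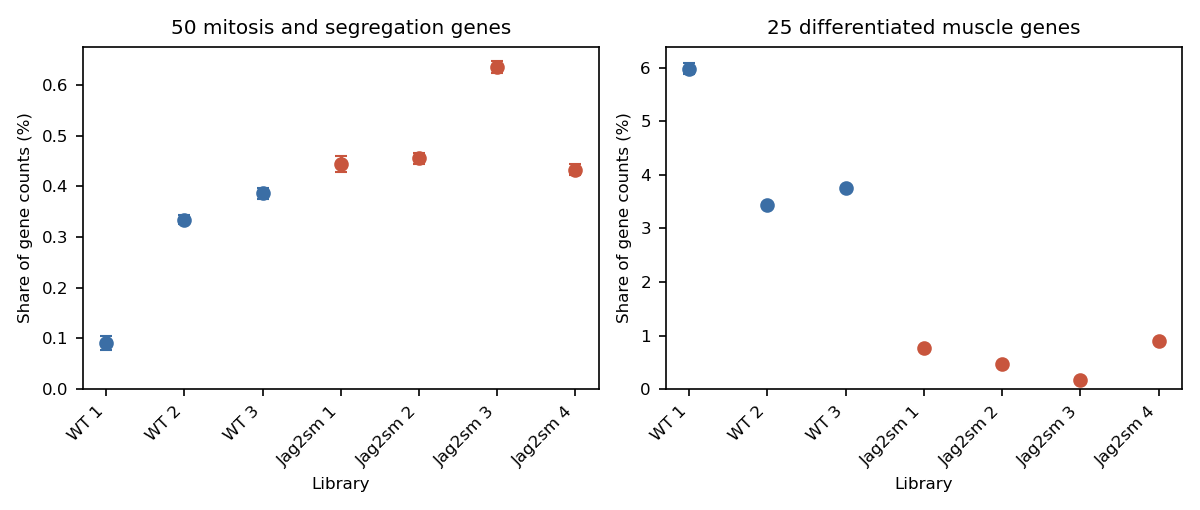
Share of all gene counts (percent, y axis) taken by the 50 mitosis and segregation genes (left) and by 25 differentiated muscle genes (right) in each library (x axis; WT blue, Jag2sm red), with 95% exact binomial intervals that cover counting error only. The mitotic share ran from 0.0905% in WT replicate 1 to 0.635% in Jag2sm replicate 3, and the muscle share from 5.98% to 0.161% in the same libraries.

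The low values of WT replicate 1 ran through nearly the whole set. It was the lowest of the 7 libraries for 48 of the 50 genes, where 38.6% of all tested genes were at their lowest in it. The exceptions were the securin gene Pttg1, with 9 counts in it, and the midzone gene Prc1, with 1. The 50 genes had 170 counts in this library in all, and Cdc25c, Cdc20, Ttk, Ndc80 and Ncapg had 0. Against the mean of WT replicates 2 and 3, the median gene of the set was 4.05-fold lower in WT replicate 1 (log2 difference -2.02), where the median over all tested genes was -0.11. The other 2 WT libraries differed less, with a median log2 difference of 0.22 (range -0.45 to 0.87) and 33 genes higher in replicate 3. Over all tested genes that median was 0.01.

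Jag2sm replicate 3 was the other library that stood out. It was the highest of the 7 for 41 of the 50 genes, where 13.9% of all tested genes were at their highest in it. Measured against the better sequenced WT libraries, 47 genes were above both WT replicates 2 and 3 in Jag2sm replicate 3, and none was below both. In Jag2sm replicates 1, 2 and 4 the genes above both numbered 22, 28 and 27, and those below both 10, 8 and 9. Of all tested genes, 39.1% to 40.3% were above both in a Jag2sm library and 36.7% to 41.6% below both. The 22 of 50 above both in Jag2sm replicate 1 was near the 40.0% of all tested genes there. The median log2 difference of the set from these 2 WT libraries was 0.09, 0.24, 0.68 and 0.18 in Jag2sm replicates 1 to 4. Between WT replicates 2 and 3 themselves it was 0.22.

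**Figure D2:**
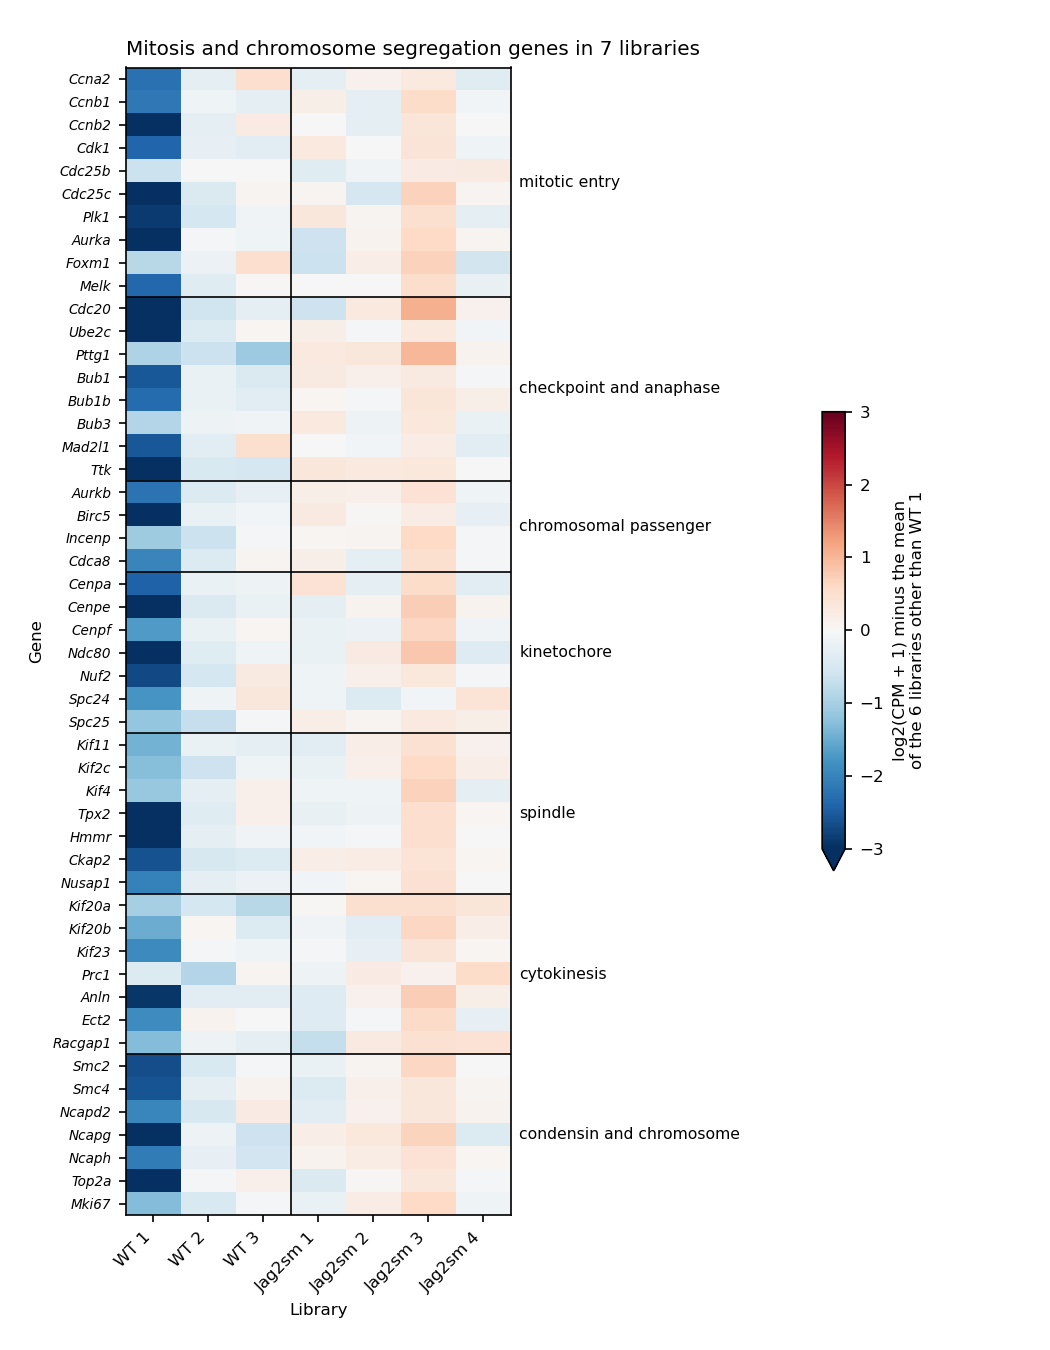
Level of each of the 50 genes (y axis, ordered by role) in each library (x axis), as log2(CPM + 1) minus the mean over the 6 libraries other than WT replicate 1 (color scale, from -3 to 3, with lower values drawn at -3). The WT replicate 1 column is low for 48 of 50 genes, and the Jag2sm replicate 3 column holds the highest value for 41.

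Gene by gene, 1 of the 50 passed the test between genotypes. All 50 were among the 9489 genes tested with edgeR's quasi-likelihood method. Pttg1 was higher in Jag2sm MuSCs at an adjusted p under 0.05, where 1.42% of all tested genes were called higher, and no member was lower, where 4.84% of all genes were. At an unadjusted p under 0.05, 9 members were higher (8.76% of all tested genes) and 0 were lower (11% of all tested genes). DESeq2 likewise called 1 member higher and none lower, where it called 1.66% and 4.69% of all genes, and 12 members were higher at its unadjusted p under 0.05 (6.32% of all genes). With the batch number as a paired block, 1 member was called higher and none lower (1.23% and 4.72% of all genes), and 18 were higher at an unadjusted p under 0.05 (7.36%). Jag2sm replicate 4 has no WT library in its batch, so the fold changes of the block fit rest on 3 pairs, 1 of them with WT replicate 1.

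The fitted log2 fold changes were nonetheless on 1 side for the whole set. All 50 were above 0, as were 54% of all tested genes, with a range of 0.02 to 1.36 and a median of 0.56 against 0.05 over all tested genes. The median standard error was 0.34, so that most single values lay within about 2 standard errors of 0. Without WT replicate 1, 44 of the 50 were above 0 (52.6% of 9938 tested genes) and the median was 0.34, against 0.03 over all tested genes. The 6 genes below 0 were then Ccna2, Foxm1, Mad2l1, Spc24, Ect2 and Top2a, and the lowest was Mad2l1 at -0.16. Pttg1 stayed the only call, where 1.11% of all genes were called higher and 4.69% lower. At an unadjusted p under 0.05, 7 members were higher (8.59% of all tested genes) and 0 were lower (11.6%). These fits weight a library by its depth, so a mean that counts each library alike gives WT replicate 1 more room. The median difference in mean log2 CPM was 0.99 with all 7 libraries and 0.29 without WT replicate 1.

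In 12 genes every Jag2sm library lay above every WT library, where 10.3% of all tested genes did, and in none did every Jag2sm library lie below, where 12.2% did. They were Cdk1, Pttg1, Bub1, Bub1b, Ttk, Aurkb, Spc25, Hmmr, Ckap2, Nusap1, Kif20a and Ncaph. Leaving out WT replicate 1 added no further gene to these 12, where 14.4% of all tested genes were then higher in every Jag2sm library, and no member was lower in every Jag2sm library, where 16.9% were.

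**Figure D3:**
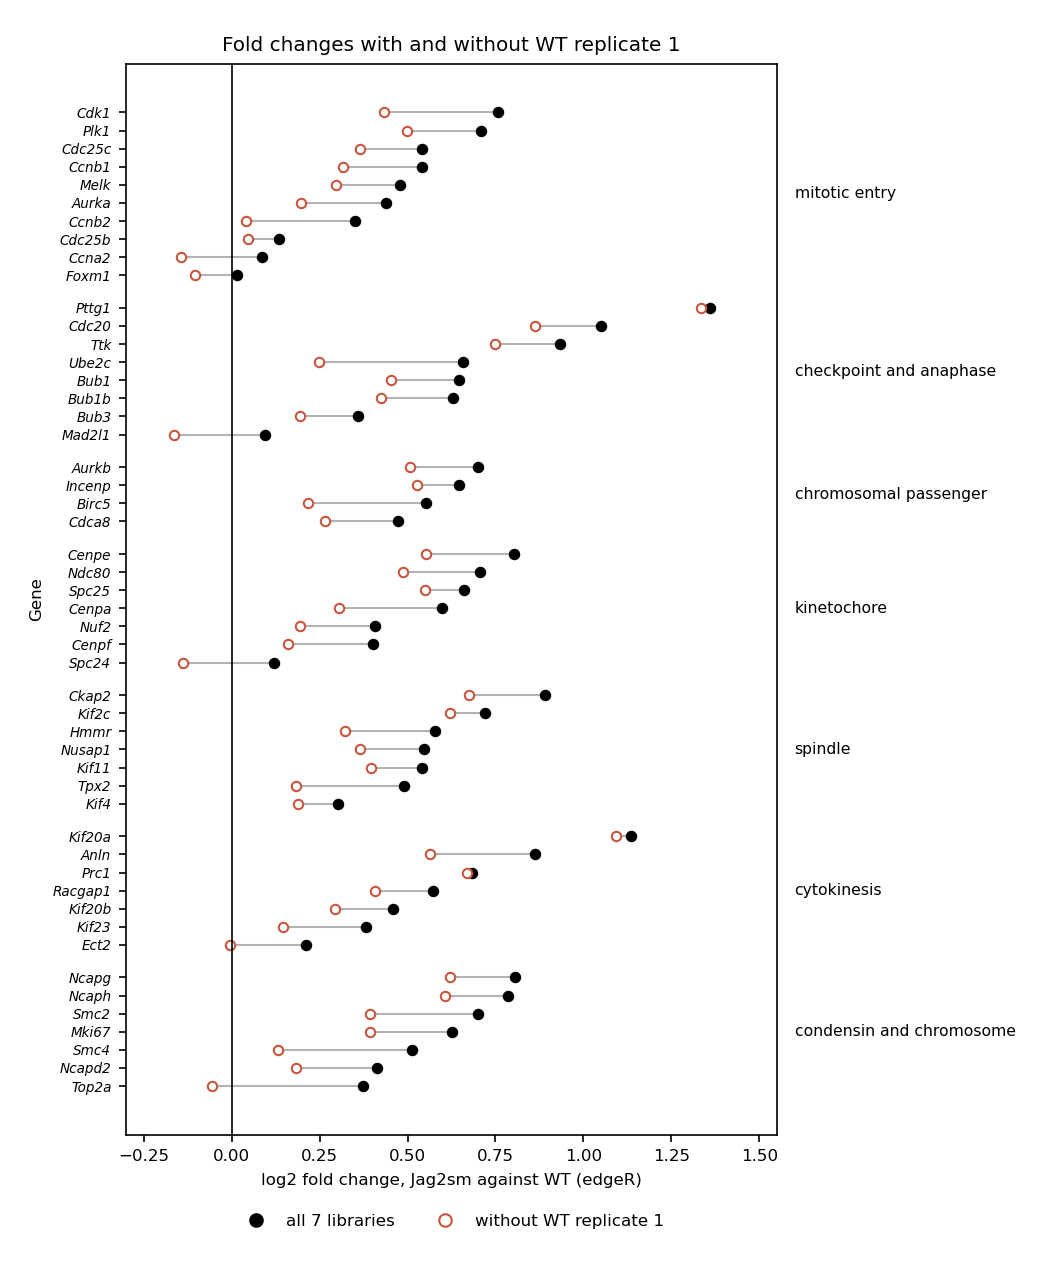
Log2 fold change of each gene between Jag2sm and WT MuSCs (x axis, edgeR) with all 7 libraries (filled points) and without WT replicate 1 (open points), with genes grouped by role (y axis). The median moved from 0.56 to 0.34, 6 genes crossed to below 0, and Pttg1 and Kif20a kept values above 1 in both fits.

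Pttg1 encodes securin, the inhibitor that holds the protease separase in check until anaphase. The gene lies on the minus strand of chromosome 11, at 43311071 to 43321000 in GRCm39. It read 51.9, 63.3 and 46.5 CPM in WT replicates 1, 2 and 3 and 123.0, 127.1, 200.1 and 108.4 CPM in Jag2sm replicates 1 to 4. The lowest Jag2sm library was thus well above the highest WT library, and WT replicate 1 lay between the other WT libraries. Mean levels were 53.9 ± 8.62 CPM (SD, n = 3) and 139.7 ± 41.1 CPM (SD, n = 4), a rise of 2.57-fold in the fit (log2 fold change 1.36 ± 0.27 SE, edgeR adjusted p = 0.0157). Without WT replicate 1 the rise was 2.52-fold (adjusted p = 0.0331), and without WT replicate 3 the log2 fold change was 1.22 and the call was lost (adjusted p = 0.0968). In the fit without WT replicate 3, 0.199% of all tested genes were called higher, where 1.42% were with all libraries. Exons of Slu7, a splicing factor gene, overlap those of Pttg1 on the opposite strand, and the strand setting of the counting is not given in the sources used here. Slu7 read 57.6, 45.2 and 40.8 CPM in WT and 59.4, 54.6, 47.8 and 35.1 CPM in Jag2sm libraries, and its fold change did not pass the test (log2 fold change 0.10, edgeR adjusted p = 0.881).

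**Figure D4:**
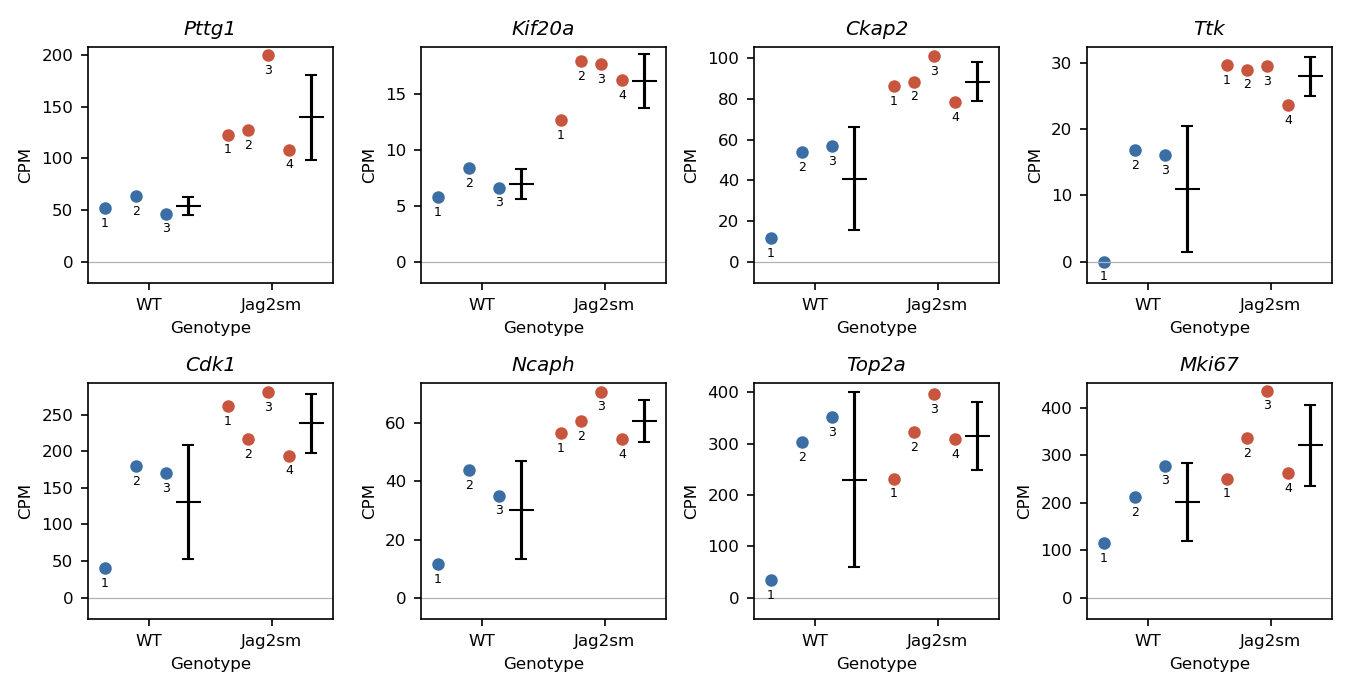
Level of 8 of the genes (CPM, y axis) in WT (blue) and Jag2sm (red) libraries, with replicate numbers below the points and the mean and SD beside them. In Pttg1, Kif20a, Ckap2, Ttk, Cdk1 and Ncaph the genotypes do not overlap, while in Top2a and Mki67 they do, and WT replicate 1 sets much of the WT spread outside Pttg1 and Kif20a.

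The other genes of the spindle checkpoint and of anaphase gave no call, where 1.42% of all tested genes were called higher and 4.84% lower. The median log2 fold change of the 8 genes was 0.65 with all libraries and 0.44 without WT replicate 1, and 4 of them, Pttg1, Bub1, Bub1b and Ttk, lay higher in every Jag2sm than in every WT library, where 10.3% of all tested genes did. Ttk encodes MPS1, the kinase that starts the checkpoint signal. It read 0, 16.8 and 16.1 CPM in WT and 29.7, 29.0, 29.6 and 23.6 CPM in Jag2sm libraries. The log2 fold change was 0.93 (edgeR adjusted p = 0.184), and 0.75 without WT replicate 1, whose 0 counts rest on a depth at which up to 17.3 CPM can be missed. Ube2c, the ubiquitin-conjugating enzyme of the anaphase-promoting complex, had 2006 counts in all and read 17.3, 185.5 and 257.0 CPM in WT and 278.6, 239.1, 303.5 and 233.1 CPM in Jag2sm libraries. Apart from WT replicate 1 its genotypes overlapped, and its log2 fold change of 0.66 became 0.25 without that library. Its exons overlap those of the troponin gene Tnnc2 on the other strand, which read at most 1.90 CPM in any library. Each other troponin gene of the muscle list read at least 343.2 CPM in every WT and 13.8 CPM in every Jag2sm library. How reads in the overlap were assigned was not tested, so the low value does not show that Tnnc2 was silent or that Ube2c was unaffected. Bub3, a checkpoint protein that binds kinetochores, read 92.2, 152.5 and 158.4 CPM in WT and 207.9, 152.0, 210.9 and 146.7 CPM in Jag2sm libraries, so the genotypes overlapped. Cdc20, the activator of the complex, had a log2 fold change of 1.05 that did not pass the test (edgeR adjusted p = 0.261) and 0 counts in WT replicate 1. Mad2l1, the checkpoint protein that sequesters CDC20, was at 0.10 with all libraries and -0.16 without WT replicate 1.

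Of the 10 genes of mitotic entry, none was called and none had an unadjusted p under 0.05 in either fit. With all libraries 1.42% of all tested genes were called higher and 4.84% lower, and 8.76% and 11% were at an unadjusted p under 0.05. Their median log2 fold change was 0.46 with all libraries and 0.25 without WT replicate 1. Cdk1, the kinase that drives entry, was the member whose genotypes did not overlap. It read 40.4, 179.7 and 170.7 CPM in WT and 261.6, 216.3, 281.4 and 194.0 CPM in Jag2sm libraries. The lowest Jag2sm value was not far above WT replicate 2, and the log2 fold change of 0.76 (edgeR adjusted p = 0.278) became 0.43 (adjusted p = 0.251) without WT replicate 1. Ccnb2, a B-type cyclin that partners CDK1, read 11.5, 86.6 and 127.1 CPM in WT and 106.0, 89.1, 137.5 and 106.0 CPM in Jag2sm libraries. Its WT replicate 3 was above 3 of the Jag2sm libraries, and its log2 fold change fell from 0.35 to 0.04 without WT replicate 1. Foxm1, the transcription factor that activates many G2/M genes, and Ccna2, the cyclin of S phase and G2, had the lowest fold changes of the group, at 0.02 and 0.09 on the log2 scale with all libraries, and -0.10 and -0.14 without WT replicate 1. The kinase genes Plk1, Aurka and Melk, the phosphatase genes Cdc25b and Cdc25c and the cyclin gene Ccnb1 lay between 0.13 and 0.71.

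The chromosomal passenger complex corrects faulty attachments at the centromere and then moves to the midzone. Its 4 genes were at a median log2 fold change of 0.60, and 0.39 without WT replicate 1. Aurkb, its kinase, did not overlap between genotypes, with 11.5, 43.3 and 48.4 CPM in WT and 65.0, 64.3, 78.3 and 53.0 CPM in Jag2sm libraries. The log2 fold change was 0.70 ± 0.29 SE (edgeR adjusted p = 0.216) and 0.51 without WT replicate 1. Incenp, the scaffold, read 40.4, 54.3 and 83.5 CPM in WT and 89.1, 90.5, 131.1 and 82.3 CPM in Jag2sm libraries. WT replicate 3 was thus just above Jag2sm replicate 4, and the log2 fold change of 0.65 (edgeR adjusted p = 0.209) became 0.53 without WT replicate 1, the smallest shift among the 4 genes. Birc5, the survivin subunit, read 17.3, 126.0 and 137.5 CPM in WT and 175.3, 148.6, 170.5 and 123.1 CPM in Jag2sm libraries. Its log2 fold change fell from 0.55 to 0.22 without WT replicate 1, and that of Cdca8, the borealin subunit, from 0.47 to 0.27.

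Kinetochore genes showed the same mixture of a low WT replicate 1 and small differences elsewhere. Over the 7 genes the median log2 fold change was 0.60, and 0.31 without WT replicate 1. Spc25, a subunit of the NDC80 complex that binds microtubules, read 23.1, 32.3 and 51.2 CPM in WT and 60.8, 56.0, 65.5 and 60.3 CPM in Jag2sm libraries. The Jag2sm libraries lay in a narrow band above all WT libraries, but the log2 fold change of 0.66 did not pass the test (edgeR adjusted p = 0.167; 0.55 and adjusted p = 0.201 without WT replicate 1). Spc24, its partner in the same complex, had no such pattern, with a log2 fold change of 0.12 that became -0.14 without WT replicate 1. Cenpe, a kinesin motor of the kinetochore, read 5.76, 56.2 and 66.4 CPM in WT and 62.2, 82.2, 127.6 and 83.1 CPM in Jag2sm libraries. It had the largest fold change of the group (log2 fold change 0.80, edgeR adjusted p = 0.289), with Jag2sm replicate 1 below WT replicate 3. Cenpf, which encodes a large kinetochore protein of G2 and mitosis, read 34.6, 100.2 and 119.5 CPM in WT and 100.4, 102.3, 178.9 and 106.8 CPM in Jag2sm libraries, so that replicate 3 alone was above WT replicate 3. Cenpa, the histone H3 variant that marks centromeres, read 23.1, 113.1 and 115.7 CPM in WT and 173.9, 105.7, 189.7 and 101.1 CPM in Jag2sm libraries. Jag2sm replicates 1 and 3 were above and replicates 2 and 4 below the better sequenced WT libraries. Ndc80 and Nuf2, which pair with each other in the microtubule-binding end of that complex, were at 0.71 and 0.41 on the log2 scale, and 0.49 and 0.20 without WT replicate 1.

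Among the 7 spindle genes, Ckap2 came nearest to a call. Ckap2 encodes a protein of spindle microtubules and poles. It read 11.5, 53.6 and 56.9 CPM in WT and 86.3, 88.4, 101.0 and 78.3 CPM in Jag2sm libraries. The 4 Jag2sm libraries were well above all WT libraries, with a log2 fold change of 0.89 ± 0.30 SE (edgeR adjusted p = 0.112) and 0.67 ± 0.18 SE without WT replicate 1 (adjusted p = 0.0641). Hmmr and Nusap1, which encode microtubule-binding proteins of the spindle, also did not overlap between genotypes, at log2 fold changes of 0.58 and 0.55. Kif2c, the microtubule depolymerase MCAK, read 11.5, 18.7 and 26.6 CPM in WT and 25.5, 32.5, 44.3 and 33.4 CPM in Jag2sm libraries. WT replicate 3 was just above Jag2sm replicate 1, and the log2 fold change was 0.72 (edgeR adjusted p = 0.21) and 0.62 without WT replicate 1. Tpx2, the activator of Aurora A on the spindle, read 5.76, 76.3 and 109.1 CPM in WT and 84.8, 89.1, 140.4 and 102.7 CPM in Jag2sm libraries. Its log2 fold change fell from 0.49 to 0.18 without WT replicate 1. The motor genes Kif11 and Kif4 were at 0.54 and 0.30 on the log2 scale.

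Kif20a, the midzone kinesin MKLP2, had the second highest fold change of the 50 genes. It read 5.76, 8.40 and 6.64 CPM in WT and 12.7, 18.0, 17.7 and 16.3 CPM in Jag2sm libraries. As in Pttg1, WT replicate 1 did not set the difference: the fold was 2.20 with all libraries (log2 fold change 1.14 ± 0.33 SE, edgeR adjusted p = 0.0737) and 2.13 without it (adjusted p = 0.0951). Depth limits this gene, with 21 counts in WT, of which 1 in WT replicate 1, and 91 in Jag2sm libraries. Its exons overlap those of Brd8 and Cdc23 on the other strand. The median log2 fold change of the 7 cytokinesis genes was 0.57, and 0.41 without WT replicate 1. Anln, the anillin scaffold of the contractile ring, read 17.3, 108.6 and 107.2 CPM in WT and 104.6, 149.9, 226.2 and 154.9 CPM in Jag2sm libraries. Jag2sm replicate 1 was just below WT replicates 2 and 3, and the log2 fold change was 0.86 (edgeR adjusted p = 0.266) and 0.56 without WT replicate 1. Racgap1, the GTPase regulator of the centralspindlin complex, read 34.6, 77.6 and 72.1 CPM in WT and 52.3, 105.0, 119.7 and 117.4 CPM in Jag2sm libraries. Here too Jag2sm replicate 1 lay below WT replicates 2 and 3. Kif23, the other centralspindlin subunit, and Ect2, the exchange factor that it recruits, were at 0.38 and 0.21 on the log2 scale, and 0.15 and -0.0053 without WT replicate 1. Kif20b was at 0.46, and Prc1, which had 68 counts in all, at 0.68.

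The condensin and chromosome genes include the proliferation marker Mki67 and Top2a, the topoisomerase that untangles sister chromatids. Their median log2 fold change was 0.63, and 0.39 without WT replicate 1. Ncaph, a condensin I subunit, did not overlap between genotypes, with 11.5, 44.0 and 35.1 CPM in WT and 56.6, 60.8, 71.0 and 54.6 CPM in Jag2sm libraries. Its log2 fold change was 0.78 ± 0.28 SE (edgeR adjusted p = 0.142), and 0.61 without WT replicate 1 (adjusted p = 0.132). Ncapg, which belongs to the same complex, had 0 counts in WT replicate 1, 18.7 and 13.3 CPM in the other WT libraries, and 24.0, 26.3, 33.5 and 15.5 CPM in Jag2sm libraries. Mki67 read 115.3, 210.7 and 277.9 CPM in WT and 250.3, 335.8, 435.6 and 262.5 CPM in Jag2sm libraries. WT replicate 3 was above Jag2sm replicates 1 and 4, and the log2 fold change was 0.63 (edgeR adjusted p = 0.297) and 0.39 without WT replicate 1. Top2a, with 2657 counts the most counted of the 50 genes, read 34.6, 302.5 and 350.9 CPM in WT and 231.9, 322.7, 395.7 and 309.0 CPM in Jag2sm libraries. WT replicates 2 and 3 lay inside the range of the Jag2sm libraries, and the log2 fold change of 0.37 turned to -0.057 without WT replicate 1. The condensin ATPase genes Smc2 and Smc4 were at 0.70 and 0.51 on the log2 scale and Ncapd2 at 0.41, and 0.39, 0.13 and 0.18 without WT replicate 1.

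The labels give each library a batch number equal to its replicate number, so 3 pairs of WT and Jag2sm libraries could be compared within a batch. In batch 1, which holds WT replicate 1, all 50 genes were higher in the Jag2sm library, with a median log2 difference of 2.27 against 0.13 over all tested genes. In batch 2, 41 of the 50 were higher, with a median of 0.37 against 0.01, and in batch 3, 47 were higher, with a median of 0.62 against 0.00. Of all tested genes, 53.8%, 51.2% and 50.1% were higher in the Jag2sm library of the 3 batches. In batches 2 and 3 alike, 39 genes were higher. As all 50 were higher in batch 1, the same 39 were higher in all 3, and batch 1 adds nothing to this count. Pttg1 was higher by 1.22, 0.99 and 2.07 and Kif20a by 0.95, 0.96 and 1.22 on the log2 scale in batches 1, 2 and 3, so that neither depended on batch 1. Their batch 1 values rest on 9 counts of Pttg1 and 1 of Kif20a in WT replicate 1. Spc24 was higher by 1.62 in batch 1 and had differences of -0.27 and -0.41 in batches 2 and 3. With 1 library per genotype in a batch, these differences have no replicate check.

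**Figure D5:**
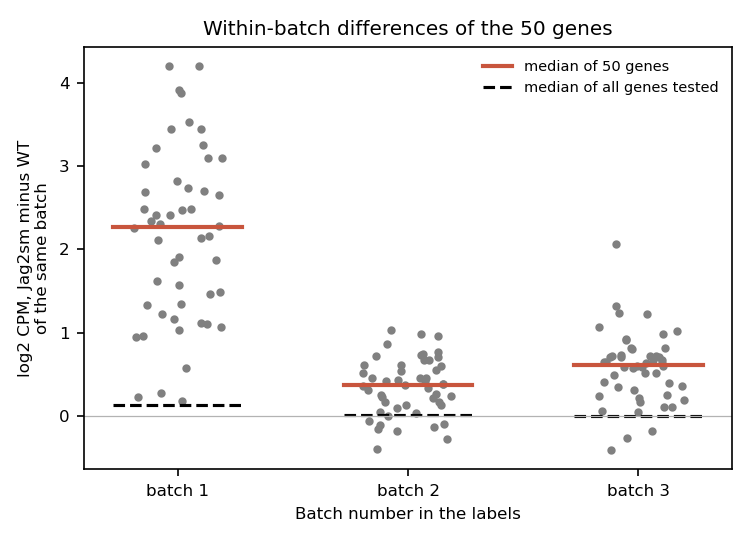
Difference in log2 CPM between the Jag2sm and the WT library of each batch (y axis) for each of the 50 genes (points), with the median of the 50 genes (solid line) and of all tested genes (dashed line). The median of the 50 genes was 2.27, 0.37 and 0.62 in batches 1, 2 and 3 (x axis), against 0.13, 0.01 and 0.00 over all tested genes.

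The promoters of these genes are known to share a pair of short elements, the cell cycle genes homology region (CHR), read by the DREAM and MuvB complexes, and the CCAAT box, read by NF-Y. RefSeq promoter windows were at hand for 41 of the 50 genes. Both strands were searched for the CHR as TTTGAA or TTCGAA and for CCAAT, and matches that shared bases were counted for each element. In the 250 bases before the start, 16 of the 41 genes (39%) held a CHR, against 19.6% of 27025 genes, and 30 (73.2%) held a CCAAT box, against 37.5%. Both were present in 15 genes (36.6%), against 7% of all genes. When the 50 bases after the start were searched as well, a choice made after the first counts were seen, 32 genes (78%) held a CHR and 28 (68.3%) held both, against 21.7% and 8.61% of all genes. A match describes the letters and does not show that a factor binds there.

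The 120 bases before the start are printed for the 6 genes whose genotypes did not overlap and in which the annotation has at most 30 of these bases in an exon. Capitals mark the CHR (TTTGAA) and the CCAAT box, which is written ATTGG where it lies on the other strand. The sequences are RefSeq's, from GRCm38.p6, and each was found once and without a mismatch in GRCm39, from which the positions are taken. Cdk1 is at chr10:69188743-69188862 on the minus strand, Ckap2 at chr8:22675836-22675955 on the minus strand, and Bub1 at chr2:127673780-127673899 on the minus strand. Bub1b is at chr2:118428572-118428691 on the plus strand, Hmmr at chr11:40624265-40624384 on the minus strand, and Spc25 at chr2:69036558-69036677 on the minus strand.
Cdk1: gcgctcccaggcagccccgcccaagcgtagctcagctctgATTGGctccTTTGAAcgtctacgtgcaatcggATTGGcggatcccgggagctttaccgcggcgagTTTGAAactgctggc
Ckap2: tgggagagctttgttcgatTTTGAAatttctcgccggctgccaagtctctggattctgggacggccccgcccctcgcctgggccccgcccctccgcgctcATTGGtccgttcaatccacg
Bub1: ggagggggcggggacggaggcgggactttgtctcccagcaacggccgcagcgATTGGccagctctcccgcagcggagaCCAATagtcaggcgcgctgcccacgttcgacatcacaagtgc
Bub1b: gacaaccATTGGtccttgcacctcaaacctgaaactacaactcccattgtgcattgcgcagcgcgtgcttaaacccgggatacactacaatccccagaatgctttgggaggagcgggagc
Hmmr: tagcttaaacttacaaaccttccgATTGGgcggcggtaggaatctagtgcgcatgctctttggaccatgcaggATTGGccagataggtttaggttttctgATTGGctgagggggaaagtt
Spc25: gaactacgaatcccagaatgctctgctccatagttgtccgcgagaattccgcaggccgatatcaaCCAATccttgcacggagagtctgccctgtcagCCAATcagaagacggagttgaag

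Cdk1 held 2 CHR matches in this stretch, 71 and 15 bases before the start, each of them downstream of a CCAAT box. In Ckap2 the order was reversed, with the CHR 101 bases and the CCAAT box 20 bases before the start. Hmmr and Spc25 held CCAAT boxes and no CHR there. The window of Pttg1 held neither element, and Kif20a had no window in the table. For the 16 genes with a CHR before the start the median log2 fold change was 0.64, and 0.39 without WT replicate 1. The 25 genes with a window and no CHR there had a median of 0.55, and 0.32 without WT replicate 1, and the difference between these groups was not tested.

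Of 71 other mitotic genes, 64 were tested. Of these, 1 was called higher and none lower, where 1.42% and 4.84% of all tested genes were. The median log2 fold change was 0.46, and 0.35 without WT replicate 1. The call was Gtse1, a microtubule-binding protein of G2, at 23.1, 41.4 and 57.9 CPM in WT and 104.6, 134.1, 83.8 and 126.4 CPM in Jag2sm libraries. Its log2 fold change was 1.32 (edgeR adjusted p = 0.0197), and 1.18 without WT replicate 1 (adjusted p = 0.0298). The 35 tested genes of G1/S and DNA replication gave no call and a median of 0.45, and 0.28 without WT replicate 1. Rrm2 and Rrm1, the ribonucleotide reductase subunits, were at 0.20 and 0.05 on the log2 scale, and at -0.13 and -0.09 without WT replicate 1. Cohesin and anaphase-promoting complex genes, which are expressed throughout the cell cycle, had 0 calls among 24 tested and a median of 0.09, and 0.05 without WT replicate 1. Rad21, the cohesin subunit cut by separase, was at 0.22, and Anapc11, the RING subunit of the complex, at 0.32. At an unadjusted p under 0.05, 7 of the other mitotic, 5 of the G1/S and 0 of the cohesin and anaphase-promoting complex genes were higher, where 8.76% of all tested genes were, and none was lower, where 11% were.

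Genes that regulate cell cycle exit moved in both directions. Of 19 tested, 2 were called higher and 4 lower, where 1.42% and 4.84% of all tested genes were. Without WT replicate 1, 1 was called higher and 3 lower, where 1.11% and 4.69% were. The growth arrest gene Gadd45a had a log2 fold change of -1.70 (edgeR adjusted p = 0.00224), the retinoblastoma gene Rb1 -1.40 (adjusted p = 0.0473) and the CDK inhibitor gene Cdkn1a -1.09 (adjusted p = 0.0369). The D-type cyclin gene Ccnd3 was at -0.99 (adjusted p = 0.0151). The other D-type cyclin genes, Ccnd1 at 1.17 (adjusted p = 0.0622) and Ccnd2 at 0.86 (adjusted p = 0.199), were above 0 and not called. Of the genes called higher, Cdkn2a, which encodes the inhibitor p16 and the protein ARF, was at 1.22 (adjusted p = 0.0368), and the cyclin G gene Ccng1 at 0.97 (adjusted p = 0.0451). Cdkn1a read 1199, 793.8 and 837.4 CPM in WT and 518.9, 396.6, 315.4 and 530.7 CPM in Jag2sm libraries. It was thus highest in WT replicate 1 and lowest in Jag2sm replicate 3, the libraries in which the mitotic genes were lowest and highest. Rb1 was so too, but Gadd45a was highest in WT replicate 3 (372.7 CPM) and lowest in Jag2sm replicate 1 (93.3 CPM). Ccnd3 was also lowest in Jag2sm replicate 1 (53.7 CPM). Of the 19 genes, 4 were highest and 8 lowest in WT replicate 1, where 30.03% and 38.6% of all tested genes were. A link to the mitotic genes was not tested. Without WT replicate 1, Gadd45a (edgeR adjusted p = 0.00178), Ccnd3 (adjusted p = 0.0176), Ccng1 (adjusted p = 0.0429) and Cdkn1a (adjusted p = 0.0442) kept their calls, while Rb1 (adjusted p = 0.0845) and Cdkn2a (adjusted p = 0.0729) did not.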

How the data were processed

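RNA was measured in 3 WT and 4 Jag2sm MuSC samples. The authors prepared direct cDNA libraries, pooled them over 2 PromethION flow cells and called bases with dorado. Reads were aligned by minimap2 2.17 to GRCm39 and assigned to genes by HTSeq, whose version, strand setting and annotation release are not given in the sources used here. They deposited raw counts per gene for each library, without normalization. The authors' DESeq2 table (R 4.3.0) holds a mean, log2 fold changes with standard errors, test statistics and p-values and was not used.

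Gene identifiers were matched to GENCODE M39, and 5 summary rows were left out. Of the 50 members, 28 have exons that overlap another gene, 26 of them on the opposite strand. The gene tests were run in edgeR 4.0.16 under R 4.3.3: filterByExpr with a minimum count of 10 and a minimum total count of 15, TMM normalization, glmQLFit and glmQLFTest without covariates, and Benjamini-Hochberg adjustment over 9489 genes, with a threshold of 0.05. CPM are scaled to the TMM library size, and a prior count of 2 was added for log2 CPM. Alternatives were DESeq2 1.42.0, limma-voom (limma 3.58.1), DESeq2 size factors, library size alone, other filters, other prior counts, the batch number as a paired block, and each library left out in turn. Exact intervals used SciPy 1.17.1.

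The labels give WT and Jag2sm libraries with the same number the same batch. Their deviations from the genotype means correlated at 0.0740, 0.0144 and 0.0539 across genes in batches 1, 2 and 3. The study names no covariate, so the block was an alternative.

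The members, roles and gene lists were chosen with earlier results of these data known, and the choice of genes is no independent evidence. In each of 7 roles, values per library are given for the 2 genes with the most counts, the gene with the largest fold change, and any with an unadjusted p under 0.05 in either fit.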

Additional observations from a re-analysis of the deposited data

Results flagged for a closer look

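Of 27 groups of Jag2sm libraries examined for a single library far from the other 3 (Dixon's gap test), 4 gave one, and chance gives about 1 in 20. The groups share the same libraries, and the counts of Cenpf and Incenp enter the share of the 50 genes. The 4 are therefore not independent, and the rate of 1 in 20 is no test of their number. Jag2sm replicate 3 was far above the others in Cenpf (178.9 CPM), in Incenp (131.1 CPM) and in the share of all gene counts that the 50 genes took (0.635%). Without it the mean share of the other Jag2sm libraries was 0.444%, and WT libraries reached at most 0.386%. Jag2sm replicate 4 was far below the others in Ttk (23.6 CPM), a value still above every WT library.

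The reads that did not align, which enter none of the comparisons, made up 50.8%, 46.7% and 46.0% of all reads in Jag2sm replicates 1, 2 and 4, where WT libraries had 2.44% to 3.24%. Jag2sm replicate 3, in which 41 of the 50 genes were at their highest, had 3.07%. Their part in the values of the 50 genes was not tested.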

How the results depend on the processing

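The count of members called higher, 1 in the comparison as reported, was 2 with library size alone (Pttg1 and Kif20a, where 2.54% of all genes were called higher) and 4 with no filter on low counts (Cdc20, Pttg1, Ckap2 and Anln, where 1.86% were). It ranged from 0 to 1 when each library was left out in turn, where 0.199% (without WT replicate 3) to 2.39% (without Jag2sm replicate 3) of all genes were called higher. The 0 came without WT replicate 3, where 12 members were higher at an unadjusted p under 0.05. It was 1 with DESeq2, limma-voom, DESeq2 size factors, a mean count of at least 10 and the replicate block, and none was called lower under any of these. Under these 1.07% to 1.66% of all genes were called higher and 4.62% to 5.37% lower. The block moved the members higher at an unadjusted p under 0.05 from 9 to 18 and changed no call. That number was 22 with library size alone and 26 with no filter, and 6 to 13 with a library left out. Except without WT replicate 1, the share of all genes is not given for these counts or for the 12 above. They can therefore not be judged against all genes. The median difference in mean log2 CPM, 0.99, ranged from 0.29 (without WT replicate 1) to 1.35 with a library left out, and was 1.27 without WT replicate 2 and 1.35 without WT replicate 3. With library size alone it was 1.15, where the median over all tested genes moved from 0.07 to 0.22. For the 23 genes given per library, 317 of 322 values under an alternative kept their direction and their side of the threshold. The log2 fold change of Top2a ranged from -0.057 to 0.74 with a library left out and was reversed without WT replicate 1 (-0.057), Pttg1 lost its call without WT replicate 3 (adjusted p = 0.0968), and Ckap2 (0.0308) and Anln (0.0391) with no filter and Kif20a (0.0453) with library size alone gained one. Pttg1 had an edgeR, DESeq2 or limma adjusted p of 0.000114 to 0.0968 over its alternatives. The cause of these changes was not tested. Alternatives to the fit without WT replicate 1 (DESeq2, DESeq2 size factors, no filter and the replicate block) were added after seeing the data, and each called 1 member. Of all genes, 1.07% to 2.02% were called higher in these alternatives. Depth limits the genes with few counts, above all in WT replicate 1, where 3 counts make 17.3 CPM.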
